A study of Sinibotia superciliaris with 2 samples.

Results

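The enzymes described here carry out the lower and middle steps of glycolysis in black and yellow skin of the loach Sinibotia superciliaris (also called Botia superciliaris). They were chosen by name. A unigene, the unit of the assembled transcriptome, was taken when its best Swiss-Prot match was beta-enolase (ENOB), alpha-enolase (ENOA), phosphoglycerate mutase 2 or 1 (PGAM2, PGAM1), muscle-type phosphofructokinase (K6PF), aldolase A (ALDOA), glyceraldehyde phosphate dehydrogenase (G3P), phosphoglycerate kinase 1 (PGK1), triosephosphate isomerase (TPIS) or muscle-type pyruvate kinase (KPYM). This gave 14 of 124650 unigenes, under 9 of the 10 names. ENOA had no unigene in the annotation used and was not analysed here.

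RNA of Black skin and of Yellow skin was sequenced to compare the colours of the striped pattern, with 1 library per colour. The labels give wild adults from a river, weighing 6.25 ± 0.30 g and measuring 8.75 ± 0.20 cm, no treatment, and skin of each colour from 6 individuals. They say neither whether RNA of the fish was pooled nor what ± stands for. With 1 library per colour there is no replicate check, no test across fish and no p-value, and each comparison is between these libraries only.

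Glycolysis turns glucose into pyruvate and yields ATP without oxygen. Vertebrates keep several copies of most of its enzymes, and some copies (beta-enolase, phosphoglycerate mutase 2, muscle-type phosphofructokinase, aldolase A) are best known from fast skeletal muscle, while others serve liver, brain or tissues at large. Teleost fish often hold an extra copy of a gene, marked a and b in zebrafish names. Dissected skin can carry muscle from beneath it, and skin cells run glycolysis as well.

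Each level is given in RPM, that is, reads per 1000000 reads of the library. Total depth was 35386871 reads in black and 38323075 in yellow skin. Ratios are black over yellow, with 95% intervals that cover counting error only and count each read pair once. The median RPM ratio of the 3644 genes (unigenes summed by protein name) at a mean of at least 1 RPM was 1.17, which is the ratio of a typical gene here. Names follow the best match in a protein database and are not proof of orthology, and near-identical copies could share reads. Unigene lengths are not given, so levels of different enzymes are not compared with each other.

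Most of the measured enzymes were lower in the black library. Of the 8 enzymes at a mean of at least 1 RPM, 5 had an interval wholly below 1, namely PGAM2, G3P, K6PF, ALDOA and ENOB, against 5.71% of all measured genes. KPYM and PGK1 had an interval wholly above 1, a side that held 49.6% of measured genes, and the interval of PGAM1 included 1. Wide read coverage makes intervals narrow, so the share is also given for well-covered genes: at a mean of at least 100 RPM, a level chosen after the values were seen, 9.29% of 366 genes lay wholly below 1 and 79.2% wholly above. KPYM, at a mean of 32.5 RPM, and PGAM1, at 1.66 RPM, are not in that class. By log2 ratio alone, 6 of the 8 were below 0, against 19.7% of genes. Among the 11 single unigenes at a mean of at least 1 RPM, 7 intervals lay wholly below 1 (6.72% of all measured unigenes) and 2 wholly above (30.1%). The differences were modest. None of the 8 was at least 2-fold apart on the log2(RPM + 1) scale, where 0.823% of genes were at least 2-fold higher in black and 0.137% at least 2-fold higher in yellow.

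Together the 14 unigenes were at 4080 RPM in black and 5080 RPM in yellow skin, giving a ratio of 0.803 (interval 0.796 to 0.811). That was 0.408% of all reads in black and 0.508% in yellow skin. The unigenes of PGAM2, ENOB, G3P (c107765_g5) and ALDOA (c102287_g1) held 92.1% of these reads in black and 93.0% in yellow skin, so the sum speaks for those 4. The median log2 ratio of the 8 measured enzymes was -0.27, against 0.21 over all measured genes, and 7 of the 8 lay below that median. KPYM was the exception.

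**Figure D1:**
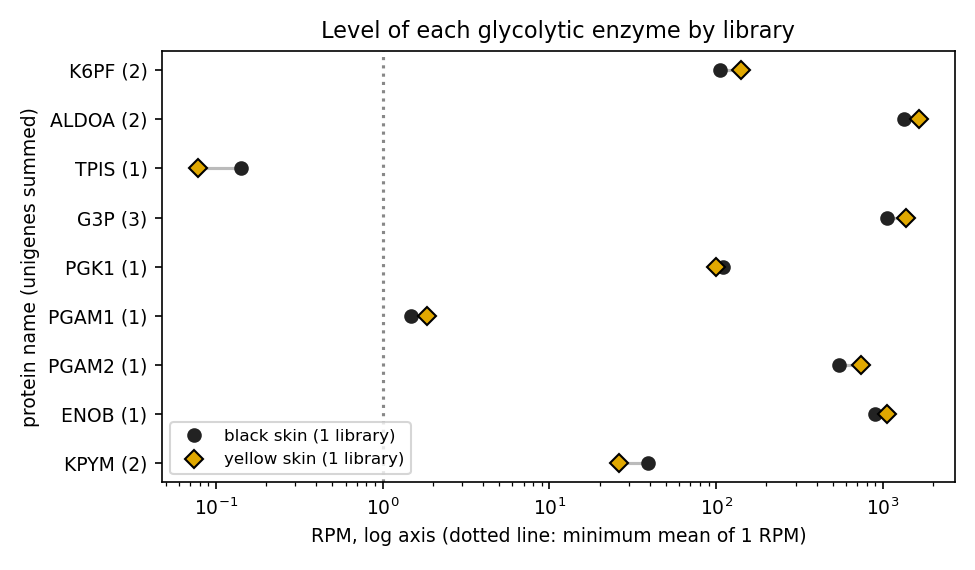
Level of each enzyme (RPM, log axis) in the black skin library (circles) and the yellow skin library (diamonds), 1 library each; numbers in brackets count the unigenes summed, and rows follow the pathway. K6PF, ALDOA, G3P, PGAM1, PGAM2 and ENOB have the circle left of the diamond, and TPIS, PGK1 and KPYM have it on the right; rows are not comparable with each other because lengths are not given.

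Phosphofructokinase makes the committing step of glycolysis. K6PF, its muscle form, was at 106 RPM in black and 141 RPM in yellow skin, giving a ratio of 0.750 (0.707 to 0.796). It was the sum of copies that differed unequally. The unigene c102053_g2, closest to zebrafish pfkma, was at 17.6 RPM in black (622 reads) and 37.9 RPM in yellow skin (1455 reads), a ratio of 0.463 (0.404 to 0.529). It was the only one of the 11 member unigenes at a mean of at least 1 RPM that was at least 2-fold apart, a size that 0.302% of 31795 measured unigenes reached on the yellow side and 0.783% on the black side. Its interval reached past 0.5, so the difference was not wholly beyond 2-fold. The copy closest to pfkmb, c97554_g1, was at 88.3 RPM in black and 103 RPM in yellow skin, giving a ratio of 0.855 (0.800 to 0.914). The pfkma-like copy thus made up 16.6% of K6PF reads in black (14.9 to 18.4%) and 26.9% in yellow skin (25.2 to 28.6%). This share does not depend on how the libraries are scaled, and the intervals, which cover counting error only, do not overlap. The pair was formed after the values were seen.

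Aldolase splits the fructose bisphosphate made by phosphofructokinase into triose phosphates. ALDOA summed to 1339 RPM in black and 1636 RPM in yellow skin, giving a ratio of 0.819 (0.805 to 0.833). Its copies did not part as those of K6PF did. The copy c102287_g1 was at 1274 RPM in black and 1551 RPM in yellow skin, giving a ratio of 0.821 (0.807 to 0.835). The copy c104151_g1, closest to zebrafish aldoab, was at 65.5 RPM in black and 84.6 RPM in yellow skin, giving a ratio of 0.775 (0.718 to 0.836). The intervals of the copies overlap, and c104151_g1 took 4.89% of ALDOA reads in black (4.62 to 5.18%) and 5.17% in yellow skin (4.93 to 5.42%).

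G3P, better known as GAPDH, oxidises glyceraldehyde phosphate and is a common reference gene in expression studies. Its fish unigene c107765_g5 was at 1051 RPM in black (37194 reads) and 1379 RPM in yellow skin (52856 reads), a ratio of 0.762 (0.748 to 0.777). Only 3.10% of measured genes had a lower log2 ratio than G3P. This reference gene was thus itself unequal between the libraries as scaled. The other G3P unigenes were at a few reads. c76928_g1 had 21 black and 7 yellow reads and c16531_g1 had 5 black and 8 yellow reads, and their closest proteins in the NR database are from Homo sapiens and Macaca mulatta, against zebrafish for c107765_g5. Both intervals include 1. TPIS was likewise a single unigene, c30091_g1, with 5 black and 3 yellow reads, whose closest entries are a maize and a mosquito (Aedes togoi) protein. It was below the minimum. The fish triosephosphate isomerase of these libraries carries the name TPISB, outside the rule, and is given with the rest of the pathway below.

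Phosphoglycerate kinase makes the first ATP of the pathway, and PGK1 is its widespread form. PGK1 was at 109.8 RPM in black and 100.3 RPM in yellow skin, giving a ratio of 1.09 (1.03 to 1.17), which is near the typical ratio of 1.17. Its log2 ratio of 0.13 changed sign under other library scalings, to -0.055 with TMM, -0.014 with median-of-ratios and -0.056 with totals that leave out the 100 most abundant unigenes.

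Phosphoglycerate mutase moves the phosphate that pyruvate kinase later hands to ADP. PGAM2, the muscle form, was at 543 RPM in black (19224 reads) and 740 RPM in yellow skin (28366 reads), a ratio of 0.734 (0.715 to 0.753). It had the lowest log2 ratio of the 8 enzymes, -0.45, and 2.58% of measured genes lay lower. PGAM1, the widespread form, was found only as a short unigene, c99141_g3, whose predicted protein part spans 134 codons. Its closest NR protein is named bisphosphoglycerate mutase 1a (zebrafish), so the name PGAM1 is uncertain. The unigene had 52 black and 71 yellow reads, and its ratio of 0.793 (0.459 to 1.35) cannot be told from 1 or from that of PGAM2 at this depth. PGAM2 held 99.7% of the reads of both names in black (99.6 to 99.8%) and 99.8% in yellow skin (99.7 to 99.8%). These are shares of reads, not of molecules, and the predicted protein of the PGAM2 unigene is longer, at 256 codons.

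Enolase removes water to make phosphoenolpyruvate, and ENOB is its muscle form. ENOB, a single unigene (c99625_g1), was at 891 RPM in black (31536 reads) and 1056 RPM in yellow skin (40472 reads), a ratio of 0.844 (0.826 to 0.862). Of measured genes, 5.98% had a lower log2 ratio. Among the 5 enzymes with intervals wholly below 1, ENOB was the closest to 1.

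Pyruvate kinase makes the last ATP of the pathway. KPYM had the highest ratio of the 8 measured enzymes, at 39.0 RPM in black and 26.0 RPM in yellow skin, giving a ratio of 1.5 (1.33 to 1.69), and 92.0% of measured genes lay below its log2 ratio of 0.57. Nearly all of it came from c107939_g2, closest to zebrafish pyruvate kinase PKM, at 37.1 RPM in black and 23.9 RPM in yellow skin, with a ratio of 1.56 (1.38 to 1.76) and a predicted protein part of 187 codons. The longer match c87045_g1, with a predicted protein of 546 codons closest to grass carp pyruvate kinase, had 67 black and 83 yellow reads, for a ratio of 0.874 (0.538 to 1.41). The abundant pyruvate kinase of these libraries fell outside the rule because its best match is the chicken entry KPYK. By its closest nucleotide match, zebrafish pyruvate kinase, muscle, b (pkmb), it too is muscle-type. That unigene, c97333_g1, was at 296 RPM in black and 401 RPM in yellow skin, giving a ratio of 0.740 (0.714 to 0.766), on the side of PGAM2 and G3P. So the name KPYM alone does not describe pyruvate kinase here. A neighbour of c107939_g2, c107939_g1, also named KPYK and sharing its component number, had a ratio of 1.43 (1.25 to 1.63). The closest nucleotide match of both neighbours is the other zebrafish copy, pyruvate kinase, muscle, a.

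The rest of the glycolytic pathway was read from a list of 26 other protein names, of which 10 were annotated and 9 measured. Of these, 4 had an interval wholly above 1, where 49.6% of all measured genes lay, and 3 wholly below, where 5.71% lay, and none was 2-fold apart. The median log2 ratio was 0.19, close to that of all genes. That middle value is the log2 ratio of PGAM5, a list member that is not a glycolytic enzyme. The summed level of the list had a ratio of 0.930 (0.914 to 0.945), against 1.16 for the sum of all measured genes. The 3 below were KPYK at 0.773 (0.747 to 0.800), glucose phosphate isomerase (G6PI), which turns glucose phosphate into fructose phosphate, at 0.831 (0.804 to 0.859), and TPISB, at 316 RPM in black and 374 RPM in yellow skin and a ratio of 0.846 (0.817 to 0.876). The KPYK sum joins unigenes on opposite sides of 1, c97333_g1 at 0.740 and c107939_g1 at 1.43. The 4 above were ENOG, the neuronal enolase, at 1.62 (1.32 to 2.0), G3P2 at 1.52 (1.43 to 1.62), HXK1, the hexokinase of most tissues, at 1.5 (1.42 to 1.59), and K6PL, the liver-type phosphofructokinase, at 1.22 (1.08 to 1.37). K6PL also sums unlike unigenes, c109814_g1 at 1.27 (1.11 to 1.46), c108761_g4 at 1.28 (0.971 to 1.70) and c62157_g1 at 0.786 (0.523 to 1.17). The closest NR protein of c108761_g4 is named type C-like, not liver type. HXK4 (glucokinase) and PGAM5, a protein phosphatase despite its name, had intervals that include 1, and K6PP, the platelet form, was below the minimum. Lactate dehydrogenase LDHBA, an entry name not on the list and named after its values were seen, had a ratio of 1.30 (1.25 to 1.35).

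**Figure D2:**
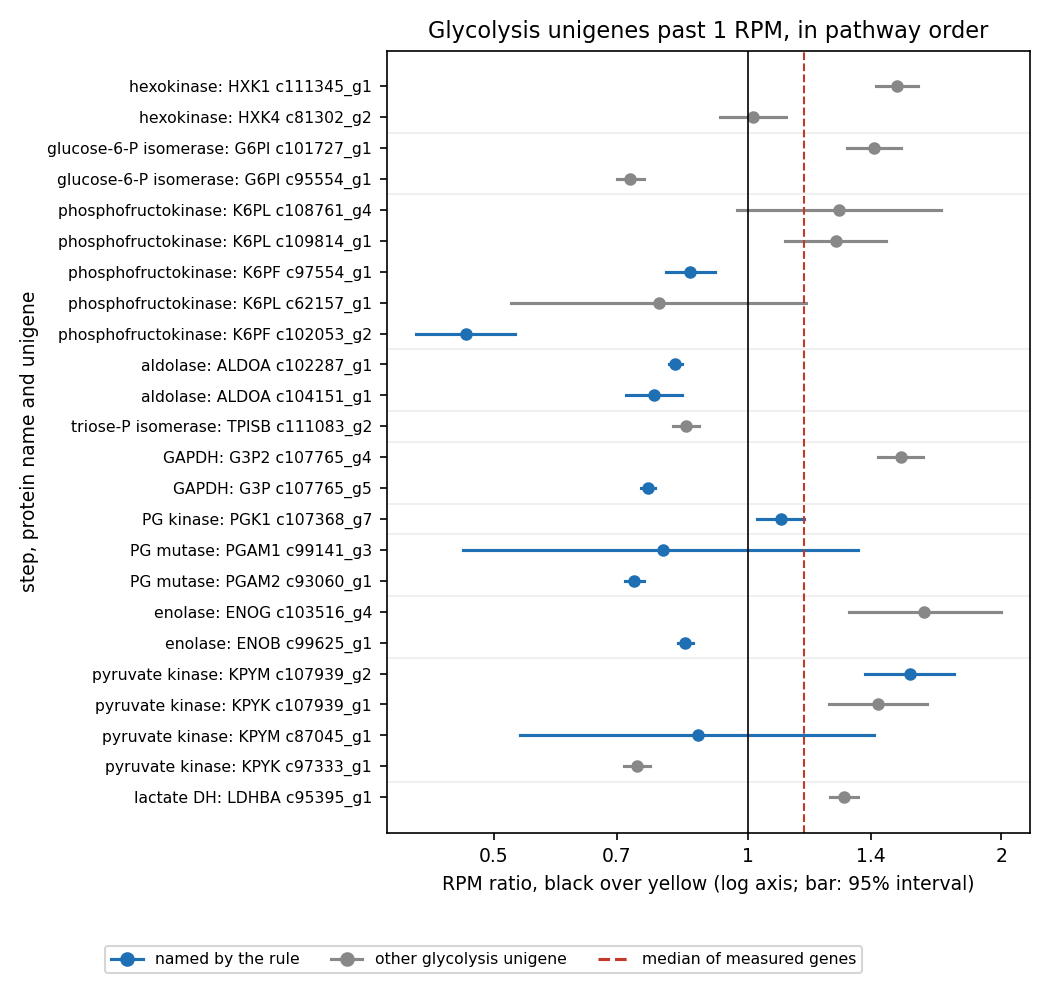
RPM ratio of black over yellow skin (log axis, 1 library each) for the 24 glycolysis unigenes at a mean of at least 1 RPM, in pathway order, with 95% counting intervals; blue marks the 11 named by the rule, grey the others (PGAM5 is not drawn), the solid line a ratio of 1 and the dashed line the median of measured genes, 1.17. At the steps of glucose phosphate isomerase, phosphofructokinase, GAPDH, enolase and pyruvate kinase, unigenes lie on each side of 1 with intervals that exclude it.

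Copies of the same enzyme thus lay on opposite sides at those steps. The clearest case outside the rule was G6PI, where the copy closest to isomerase b (c95554_g1) was at 261.8 RPM in black and 361 RPM in yellow skin, giving a ratio of 0.726 (0.699 to 0.754), and the copy closest to isomerase a (c101727_g1) was at 91.7 RPM in black and 65.0 RPM in yellow skin, giving a ratio of 1.41 (1.31 to 1.52). Pairs of copies were formed after the values were seen, so the shares within them are descriptions; they do not depend on library scaling. G3P held 88.2% of the reads of G3P and G3P2 in black (87.8 to 88.6%) and 93.7% in yellow skin (93.4 to 94.0%). These unigenes, c107765_g5 and c107765_g4, share a component number. K6PF held 75.3% of the reads of K6PF and K6PL in black (73.5 to 77.0%) and 83.2% in yellow skin (81.9 to 84.5%). Within K6PF, as given above, it was the less abundant copy whose share was smaller in black than in yellow skin, and within ALDOA the intervals of the shares overlap. For ENOB with ENOG the shares were 98.5% in black and 99.2% in yellow skin.

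**Figure D3:**
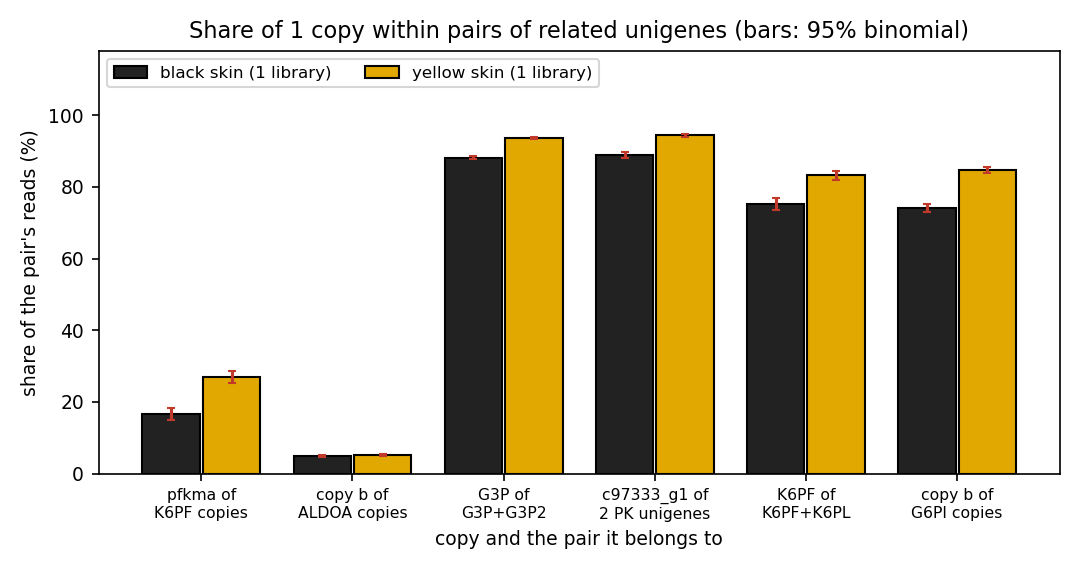
Share of the reads of a pair of related unigenes or names taken by 1 of them (percent, axis from 0), in the black library (dark bars) and the yellow library (yellow bars), with exact 95% binomial intervals for counting error. The pfkma-like copy of K6PF takes 16.6% in black and 26.9% in yellow skin, while copy b of ALDOA takes 4.89% in black and 5.17% in yellow skin; copy b of G6PI takes 74.1% in black and 84.7% in yellow skin.

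Genes that feed or drain the pathway were read from a list of 41 names for glycogen, gluconeogenesis, hexose entry and the pentose phosphate branch. All 24 annotated names were measured, 10 had an interval wholly above 1 (49.6% of all measured genes), 6 wholly below (5.71%) and none was 2-fold apart. The median log2 ratio was 0.08, and the summed level had a ratio of 0.995 (0.981 to 1.01). On the low side were GDE, the glycogen debranching enzyme, at 66.6 RPM in black and 104 RPM in yellow skin and a ratio of 0.638 (0.593 to 0.686), PHKG1, the muscle catalytic subunit of phosphorylase kinase, at 0.717 (0.612 to 0.840), and PYGM, muscle glycogen phosphorylase, at 0.837 (0.812 to 0.863). On the high side was PHKG2, the liver and testis form of that subunit, with 164 black and 70 yellow reads, a ratio of 2.54 (1.69 to 3.88); on the log2(RPM + 1) scale it was at 0.995, just under 2-fold. The glucose transporter GTR3, with a log2 ratio of 0.55, had a ratio of 1.48 (1.32 to 1.67). Some other muscle forms on the list had intervals that include 1, such as KPB1, the muscle alpha subunit of phosphorylase kinase, at 1.06 (0.968 to 1.15). GYS1, muscle glycogen synthase, was another, at 1.02 (0.952 to 1.10). The interval of GTR4, a glucose transporter of muscle and fat, lay wholly below 1, at a ratio of 0.842 (0.709 to 0.998). The remaining names wholly below 1 were GPDA, at 0.858 (0.801 to 0.918), and TKT, at 0.882 (0.850 to 0.916). Among the 10 wholly above were GTR1, at 1.31 (1.25 to 1.38), and PYC, at 1.33 (1.26 to 1.41).

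Genes of pyruvate use and energy buffering (16 names, all 13 annotated ones measured) had a median log2 ratio of 0.14, with 5 intervals wholly above 1 (49.6% of all measured genes), 3 wholly below (5.71%) and none 2-fold apart. Their summed level had a ratio of 0.918 (0.900 to 0.936). KCRS, a mitochondrial creatine kinase of striated muscle, was at 208 RPM in black and 297 RPM in yellow skin, giving a ratio of 0.70 (0.671 to 0.729). KCRB, the brain-type creatine kinase, had 102 black and 50 yellow reads, with a ratio of 2.21 (1.34 to 3.72), with a log2 ratio of 0.75. KCRU, the mitochondrial form of most tissues, was at 1.56 (1.27 to 1.92), and AMPD3, an AMP deaminase of red cells and other tissues, at 1.57 (1.28 to 1.94). AMPD1, the muscle deaminase, was at 0.901 (0.862 to 0.941). Besides KCRS and AMPD1, the name wholly below 1 was PDK2, at 0.875 (0.823 to 0.930).

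Muscle RNA was present in both libraries and did not move in a single direction. Of 45 names of the contractile apparatus, 16 were annotated, and none of these had 0 reads in either library. Their summed level was 2957 RPM in black and 3047 RPM in yellow skin, giving a ratio of 0.970 (0.959 to 0.982). The ratio of sums was 0.803 for the glycolytic enzymes and 1.16 for all measured genes. Of the 15 measured, 7 had an interval wholly below 1, against 5.71% of all measured genes, and 5 wholly above, against 49.6%. The median log2 ratio was -0.06, against 0.21 over all measured genes, and 10 of the 15 lay below that median. AT2A2, a calcium pump, was at 472 RPM in black and 646 RPM in yellow skin, giving a ratio of 0.731 (0.711 to 0.752). In RPM it was higher in yellow skin by more than the whole sum was, so the side of the summed ratio rests on AT2A2. ACTN2, the alpha-actinin of the Z-disc, was at 0.727 (0.680 to 0.778). The skeletal muscle actin ACTS went the other way, at 594 RPM in black and 455 RPM in yellow skin, giving a ratio of 1.30 (1.27 to 1.34). MLRV, a regulatory light chain of heart and slow muscle, at 2.88 (2.57 to 3.22), and AT2A1, another calcium pump, at 2.49 (2.17 to 2.86), were the list members at least 2-fold apart, both higher in black. That size was reached on that side by 0.823% of all measured genes. The other names wholly below 1 were MYH4 at 0.725 (0.625 to 0.840), SMYD1 at 0.871 (0.802 to 0.946), MYPC2 at 0.886 (0.862 to 0.911), RYR1 at 0.907 (0.865 to 0.951) and ACTN3 at 0.911 (0.885 to 0.938). Wholly above 1 were also TITIN at 1.18 (1.04 to 1.34) and MYPC1 at 1.16 (1.12 to 1.20). Troponins, parvalbumins and the fast myosin light chains on the list had no unigene in the annotation used and were not analysed here. The part of muscle RNA in the lower level of the glycolytic enzymes was not tested; in bulk skin, fewer muscle cells and less RNA per cell cannot be told apart.

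**Figure D4:**
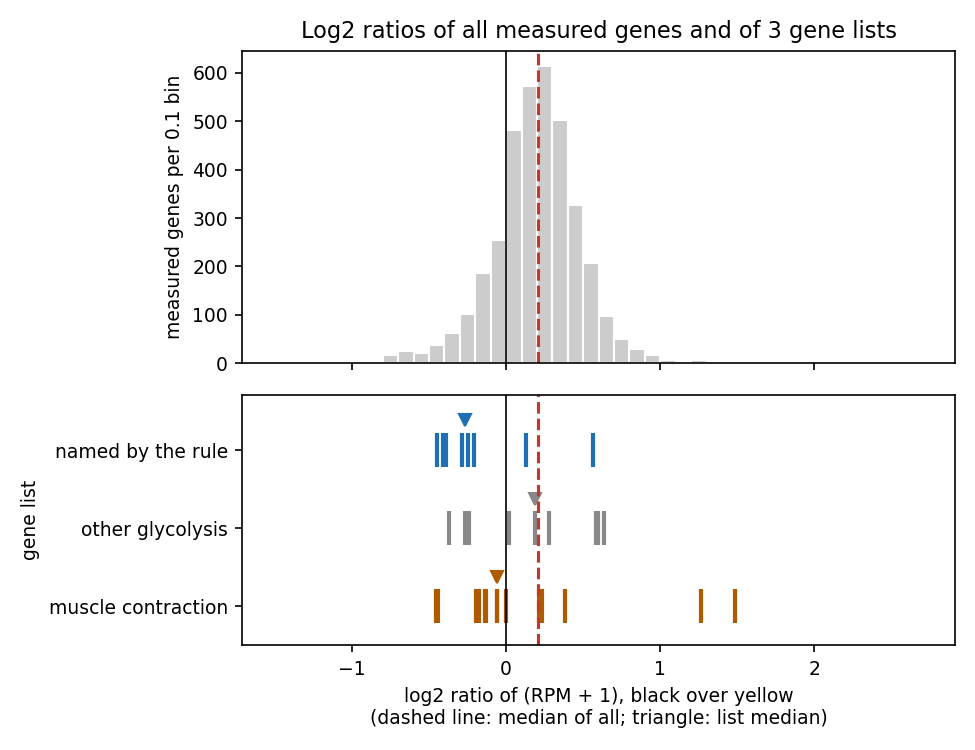
Top: log2 ratio of (RPM + 1), black over yellow skin, for the 3644 measured genes, in bins of 0.1. Bottom: the same for the measured members of 3 lists, a tick per gene and a triangle at the list median, with the dashed line at the median of all genes, 0.21; the enzymes named by the rule have their median at -0.27, the other glycolysis names at 0.19 and the contraction names at -0.06.

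Markers of the labelled tissue were present. Of 9 keratinocyte and junction names or name stems, 4 were annotated. Desmoplakin (DESP), desmoglein (DSG2) and cadherin 1 (CADH1) had ratios of 1.26 (1.21 to 1.31), 1.44 (1.38 to 1.51) and 1.24 (1.20 to 1.29). The typical ratio was 1.17, and 70.1% of measured genes had a lower log2 ratio than DESP, 89.8% than DSG2 and 67.5% than CADH1. A keratin, K1C42, was at 5.90 RPM in black and 9.73 RPM in yellow skin, on the yellow side. The melanophore names TYRP1, PMEL, NCKX5 and TYRO summed to 21.5 RPM in black and 1.96 RPM in yellow skin, on the side that the labels give. Of 4 blood cell names or name stems, carbonic anhydrase CAHZ and the anion exchanger B3AT were annotated and summed to 45 black and 149 yellow reads. Only CAHZ was measured, at a ratio of 0.319 (0.181 to 0.539). It was at least 2-fold higher in yellow skin, as 0.137% of all measured genes were. A difference in blood content was not tested.

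The scaling of the libraries moved all ratios together. A pair of unigenes with no protein match in the annotation used took 6.81% of reads in black and 17.0% in yellow skin, and these reads are part of the totals behind every RPM value. With TMM scaling, which trims such extremes, the median log2 ratio of all genes went to 0.03, and the share of genes with an interval wholly below 1 was then 15.9%, with 22.5% wholly above. With median-of-ratios scaling, 12.7% of genes lay wholly below 1 and 28.0% wholly above. The 5 enzymes stayed wholly below 1 with TMM and with median-of-ratios scaling, while KPYM alone stayed wholly above. The median of the enzymes relative to that of all genes was -0.47 on the log2 scale as deposited.

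**Figure D5:**
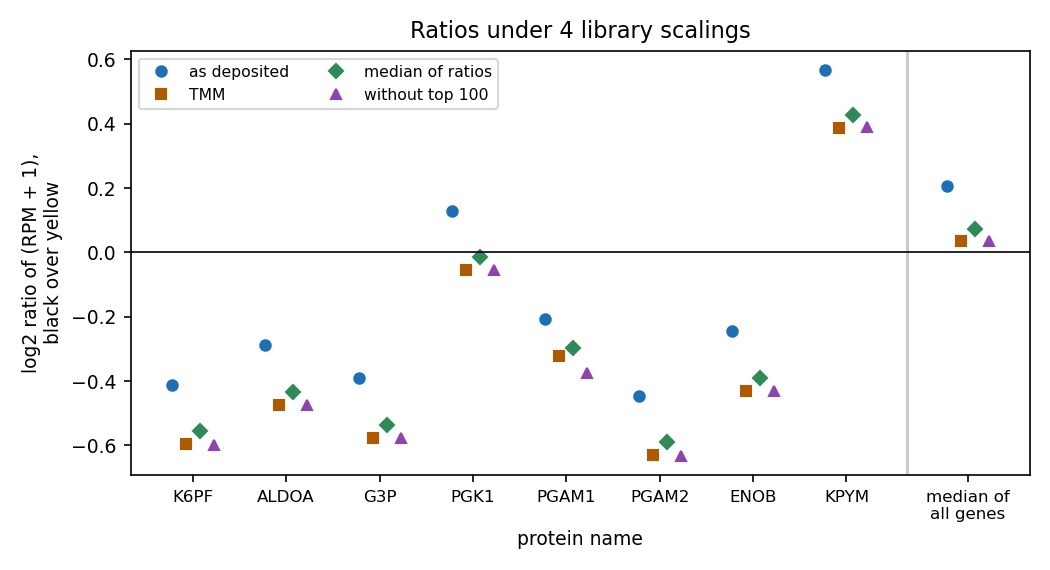
Log2 ratio of (RPM + 1), black over yellow skin, of each measured enzyme under 4 library scalings (as deposited, TMM, median of ratios, and totals without the 100 most abundant unigenes), with the median of all genes at the right. K6PF, ALDOA, G3P, PGAM1, PGAM2 and ENOB lie below 0 and KPYM above 0 under all 4, and PGK1 is at 0.13 as deposited and below 0 under the other three.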

How the data were processed

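The values deposited by the authors are a normalised signal, 1 for each unigene in each library. Its unit is not named in the file headers; the values sum to 999612 (black) and 999622 (yellow) when each unigene is counted once, and were read as RPM. Of 128781 rows, 4131 repeat a unigene with the same value. GRCz11, a zebrafish genome build, is listed per the submitters' processing notes without a role; the assembler, aligner and counter are not given in the sources read. The annotation deposited by the authors holds other entries, such as protein matches, and no measurements; it names 4.55% of all unigenes, and its final record is cut short.

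Whole reads were recovered: 1 read was worth 0.0282 RPM (black) and 0.0261 RPM (yellow), and 100% of values in each library were whole within 0.1 read, with the lowest value (0.5 of a read) taken as 0. Among black values, 2 reads (8897 unigenes) were commoner than 1 (6459) or 3 (7299), so mates appear to have been counted separately, and intervals count pairs. Ratio intervals are Clopper-Pearson intervals given the summed pairs, and shares are exact binomial (scipy 1.17.1). PCR copies are not allowed for. Calls need 2-fold on log2(RPM + 1) and a mean of at least 1 RPM. A count test across fish was not possible with 1 library per colour; the count-based rule, an interval wholly beyond 2-fold, called 24 genes toward black and 2 toward yellow. TMM used edgeR 4.0.16 on the recovered reads. The steps were tested on simulated data that held counting error only, as the intervals assume. That check cannot speak for PCR copies or differences between fish.

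The enzymes and lists were chosen with earlier results of these data known. All members are named; of each list, up to 4 measured members with the largest log2 ratio and any past 2-fold, and further ones named as examples after their values were seen. A name on the list for the rest of the pathway is not reported here and is left out of that list's counts and median.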

Additional observations from a re-analysis of the deposited data

How the results depend on the processing

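The log2 ratio of the summed enzymes, -0.32 as deposited, was -0.50 with TMM, -0.46 with median-of-ratios scaling and -0.50 with totals that leave out the 100 most abundant unigenes, which by construction shift all genes. The median of the enzymes minus that of all genes, -0.47, was -0.50 at a minimum of 5 RPM, -0.44 with the most abundant unigene of each name, -0.44 with no minimum, -0.52 with a pseudocount of 0.1 and -0.42 with 5. No enzyme was 2-fold apart under any alternative run. The pfkma-like unigene was the 1 member unigene past 2-fold, and the count was 0 at 4-fold, 0 with a pseudocount of 5 and 0 when the whole interval had to lie beyond 2-fold. Of 2 enzymes wholly above a ratio of 1, 1 remained with TMM and 1 with median-of-ratios scaling. Of all measured genes, 22.5% lay wholly above 1 with TMM and 28.0% with median-of-ratios scaling. PGK1 (c107368_g7) changed sign to -0.055 with TMM, -0.014 with median-of-ratios scaling and -0.056 without the 100 most abundant unigenes. Of 134 single values under alternatives, 89 moved by no more than the distance from the middle to an edge of their log2 counting interval. Of the rest, 39 moved by more and 6 changed sign, all PGK1, as a name and as a unigene. Enzymes with a single unigene enter these counts both ways. The interval rule and the alternatives for single unigenes and for the other lists were chosen after seeing the data. No paired analysis was possible because there is 1 library per colour. Depth limits PGAM1, TPIS, c87045_g1 and the G3P unigenes with mammalian matches.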

Other observations

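Some annotated unigenes outside the glycolytic enzymes also have a closest NR protein from Homo sapiens. With the enzymes counted too, there were 21 of 5676, with 1682 black and 1686 yellow reads in all, and 6 of them were at a mean of at least 1 RPM. The G3P unigene c76928_g1 is among the 21. For 4183 of the 5676 the closest protein is from zebrafish.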
